A study of Mus musculus with 2 samples.

Results

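H3K4me3 was examined at 6 genes of meiotic entry and meiotic cohesin in prospermatogonia, the germ cells of the fetal testis, which have not yet entered meiosis. The genes were Stra8 and Meioc, which act at the entry into meiosis, and Rec8, Rad21l, Smc1b and Stag3, which encode subunits of meiotic cohesin. Every peak overlapping one of these genes or the 5 kb on either side was taken, which gave 13 of the 135064 peaks in the list. Mouse cells positive for an Oct-GFP reporter were sorted at E17.5, with 130000 cells per assay. CUT&RUN cuts out and sequences the DNA to which an antibody is bound, and was run with an antibody against H3K4me3 and with a rabbit IgG. The labels give 1 library of each, and no file of the IgG library was used here. With 1 H3K4me3 library there was no replicate and no test between groups, so all values describe this library, and in a sorted population fewer marked cells and less mark per cell cannot be told apart.

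H3K4me3 lies at the start sites of transcribed genes and of many genes that are held ready, most often where the DNA is rich in CpG dinucleotides. STRA8 is induced by retinoic acid and acts with MEIOSIN to switch on the meiotic programme, and MEIOC acts with the RNA helicase YTHDC2 to take germ cells out of the mitotic cycle. In mice this step is taken in the fetal ovary, whereas in the testis it waits until after birth and fetal germ cells stay arrested. Cohesin is a ring of a pair of SMC proteins, a kleisin and a STAG protein that holds sister chromatids together. In meiotic cells SMC1B can take the place of SMC1A, REC8 or RAD21L that of RAD21, and STAG3 that of STAG1 or STAG2.

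All 6 genes carried H3K4me3 within 1 kb of their listed start in these premeiotic cells. Within 1 kb of either annotated end, 5 of the 6 did so, all but Stag3, against 74.3% of protein-coding genes with a listed start. A peak lay in the gene or its 5 kb flanks in 6 of 6 genes, against 88.3% of all protein-coding genes, and against 72.0% when the windows of all genes were moved by 100 kb. A peak lay within 1 kb of the listed start in 6 of 6 genes, against 73.3% of the 17492 protein-coding genes with a start in the RefSeq table, and 14.5% when the windows were moved. Most protein-coding genes were marked in this way, so the presence of the mark does not set these 6 genes apart. The strength of a peak is given as its summit pileup, the number of fragments stacked at its highest point, with a 95% Poisson interval that covers counting error only.

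The sequences at the listed starts of 4 of the genes are given from 250 bases before to 50 bases after the start. They come from RefSeq (GRCm38.p6, the build also called mm10), and no peak touched the Rad21l window. Stra8 lies at chr6:34920698-34920997 on the plus strand and Stag3 at chr5:138280259-138280558 on the plus strand. Smc1b lies at chr15:85131908-85132207 and Rad21l at chr2:151668484-151668783, both on the minus strand. Capitals mark AGGTCA, the core bound by retinoic acid receptors, in Stra8, the E-box CACGTG in Stag3, and the E2F core TTCCCGC in Stag3 and Smc1b.
Stra8: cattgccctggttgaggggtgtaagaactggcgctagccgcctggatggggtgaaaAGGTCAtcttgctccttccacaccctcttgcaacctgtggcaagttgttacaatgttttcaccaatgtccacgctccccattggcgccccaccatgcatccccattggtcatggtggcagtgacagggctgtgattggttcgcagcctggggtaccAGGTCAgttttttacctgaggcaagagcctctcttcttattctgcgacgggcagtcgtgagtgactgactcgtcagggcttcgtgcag
Stag3: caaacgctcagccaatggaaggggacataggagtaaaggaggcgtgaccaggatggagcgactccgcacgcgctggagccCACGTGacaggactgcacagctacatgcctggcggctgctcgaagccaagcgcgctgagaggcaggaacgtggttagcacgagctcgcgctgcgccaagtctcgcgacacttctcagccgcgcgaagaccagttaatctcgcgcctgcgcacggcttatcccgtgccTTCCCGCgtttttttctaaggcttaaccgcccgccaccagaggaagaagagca
Smc1b: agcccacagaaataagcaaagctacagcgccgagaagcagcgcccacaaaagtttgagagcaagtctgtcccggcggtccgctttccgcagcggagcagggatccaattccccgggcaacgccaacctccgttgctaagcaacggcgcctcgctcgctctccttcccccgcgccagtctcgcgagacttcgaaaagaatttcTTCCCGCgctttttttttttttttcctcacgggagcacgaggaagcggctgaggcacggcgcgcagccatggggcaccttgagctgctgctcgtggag
Rad21l: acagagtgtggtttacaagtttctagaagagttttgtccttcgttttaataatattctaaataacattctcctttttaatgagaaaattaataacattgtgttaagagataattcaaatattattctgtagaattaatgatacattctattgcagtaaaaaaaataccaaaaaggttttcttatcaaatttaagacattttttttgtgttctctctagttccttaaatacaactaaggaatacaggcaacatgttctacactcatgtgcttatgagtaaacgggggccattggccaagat

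CpG number differed widely between these windows of 300 bases. Stag3 held 30 CpG, Smc1b 29, Meioc 28, Rec8 18, Stra8 10 and Rad21l 2, against a median of 13.0 over 21263 listed starts of protein-coding genes. The ratio of CpG observed to that expected from base composition was 1.06 for Stag3, 1.08 for Smc1b, 0.805 for Meioc, 0.716 for Rec8, 0.430 for Stra8 and 0.317 for Rad21l. A peak touched the window in 5 of 6 genes, against 64.7% of all listed starts. It covered all 300 bases in Meioc, Rec8 and Smc1b, 264 bases in Stra8, 52 in Stag3 and 0 in Rad21l. Among all listed starts a peak touched 96.2% of windows with 21 to 30 CpG, 66.0% of those with 6 to 10 and 6.38% of those with at most 2, the class of the listed Rad21l start.

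**Figure D1:**
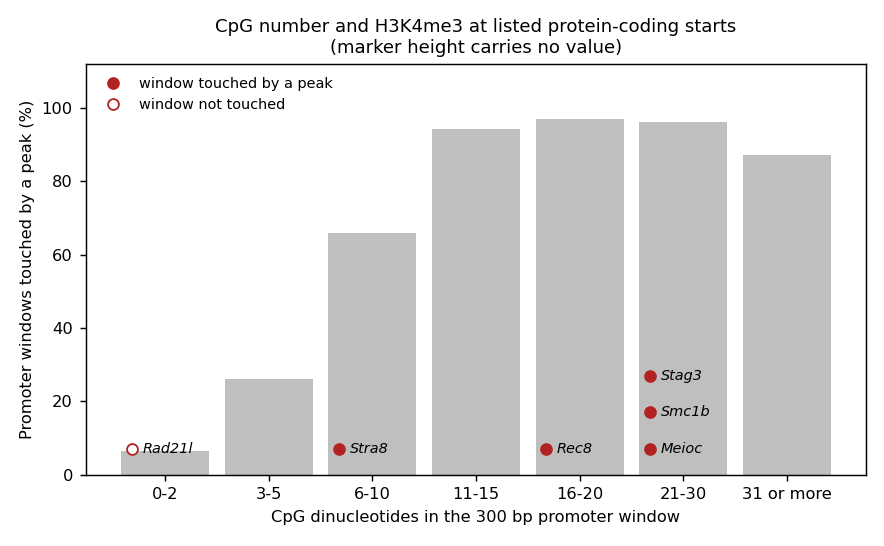
Share of 300 bp promoter windows of protein-coding genes touched by an H3K4me3 peak (y axis, %) by the number of CpG dinucleotides in the window (x axis). Circles place the 6 genes in their CpG class, with no meaning in their height, and the open circle is Rad21l, whose window with 2 CpG was not touched.

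Motif letters were searched on both strands in the same windows. AGGTCA occurred in 1 of the 6 genes, Stra8, and in 16.3% of all 32851 promoters of the table. In Stra8 it stood at 2 places, from -194 to -189 and from -38 to -33 counted from the start base as 0. TTCCCGC occurred in 3 of the 6 genes, from -3 to 3 in Stag3, from -48 to -42 in Smc1b and, on the other strand, from -228 to -222 in Meioc, and in 4.60% of all promoters. In Stag3 and Smc1b these letters stood just before a run of T, as the sequences above show. TTCCCGC holds a CpG, and its 3 genes had the highest CpG numbers of the 6. The motif shares are over all promoters, not only the protein-coding starts used for CpG number. CACGTG occurred in Stag3 alone of the 6 genes, and in 7.15% of all promoters. The CRE TGACGTCA and the motif CNCCTCAG, known for MEIOSIN and STRA8 in mice, had no match in the 6 windows, and were found in 1.79% and 7.94% of all promoters. Rec8 and Rad21l had no match to any of these motifs. None of these motifs overlapped another in the 6 windows.

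Stra8, on chromosome 6 from 34920163 to 34939344, had a wide start-site peak. The peak ran from 34920734 to 34922768, a width of 2035 bp, with 48 fragments at its summit (35.4 to 63.6) and a fold enrichment of 6.14 over the local background of the peak caller. Peak names in the deposited list carry the letters of IgG, and whether the IgG library set this background was not tested, so folds and backgrounds are read as the caller's own values. Of the 12813 protein-coding genes with a peak at a listed start, 96.3% had a narrower tallest peak and 77.3% a lower one. A lower fold was found in 50.3% of them, and the pileup interval of Stra8 includes their median of 42.0. The peak reached 214 bp upstream of the start and 1820 bp downstream, with its summit 416 bp downstream of the start. The outermost annotated 5′ end of Stra8 lies 785 bp upstream of the listed start, outside the peak, so the whole peak lay within the annotated gene. A small peak of 392 bp with 15 fragments lay inside the gene, 6219 bp downstream of the start at its summit.

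Meioc, on chromosome 11 from 102665351 to 102682240, carried a peak spread to both sides of its start. It ran from 102664853 to 102666421, a width of 1569 bp, with 37 fragments (26.1 to 51.0) and a fold of 5.06. It reached 732 bp upstream and 836 bp downstream, and its summit lay 272 bp upstream of the listed start. A narrow peak of 230 bp with 24 fragments followed after a gap of 0.599 kb, and no further peak lay in the gene.

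Rec8, on chromosome 14 from 55618002 to 55625395, encodes the kleisin that holds sister chromatids together through meiosis. Its 1 peak ran from 55617531 to 55618785, a width of 1255 bp, with 32 fragments (21.9 to 45.2). It reached 635 bp upstream and 619 bp downstream, so it lay almost evenly about the start. Its pileup was the lowest of the 6 genes and its fold of 7.27 the highest, over the lowest local background, 3.54 fragments. No other peak was found for 16.2 kb downstream of it.

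Rad21l, on chromosome 2 from 151644366 to 151670622, encodes the other meiotic kleisin, and its peak did not lie on the listed start. The 1 peak ran from 151669463 to 151671226, a width of 1764 bp, with 47 fragments (34.5 to 62.5) and a fold of 7.19. On this minus-strand gene its nearer edge was 930 bp upstream of the listed start, just inside the 1 kb window, and its summit 1580 bp upstream. The peak instead spanned the outermost annotated 5′ end of the gene, 2089 bp upstream of the listed start, with the summit 509 bp inside that end. With windows of 500 bp, with the summit required inside the window, or with 200 bp shared, Rad21l had no start-site peak. The count for the 6 genes was then 5, against 71.5%, 71.3% and 72.0% of protein-coding genes with a listed start. The CpG-poor sequence printed for Rad21l is thus that of the listed start and not of the marked DNA.

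Smc1b, on chromosome 15 from 85064689 to 85131957, shares its promoter region with Ribc2, which starts 141 bp away on the other strand. A peak of 1452 bp from 85131274 to 85132725 spanned both starts, with 41 fragments (29.4 to 55.6) and a fold of 6.18. Its summit lay 319 bp upstream of the Smc1b start, on the Ribc2 side, 177 bp from the nearest listed Ribc2 start, so its height cannot be assigned to either gene. A narrow peak of 292 bp with 24 fragments lay inside Smc1b, with its summit 986 bp downstream of the start. A peak of 915 bp with 22 fragments and a fold of 7.39 lay 46706 bp downstream, where the gene overlaps Fam118a, annotated on the other strand from 85037062 to 85117580. Its background of 2.11 fragments was the lowest in the list, a value shared by 41978 peaks.

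Stag3, on chromosome 5 from 138272514 to 138312397, had its mark broken into several peaks around its start and that of Gpc2, which lies 572 bp away on the other strand. The peak upstream of the Stag3 start, from 138279772 to 138280285, had 38 fragments (26.9 to 52.2), a fold of 4.28 and a summit 44 bp from the Gpc2 start. The peak downstream, from 138280534 to 138281291, had 34 fragments (23.5 to 47.5), a fold of 4.63 and a summit 378 bp inside Stag3. Between them lay 248 bp without a peak, and the listed Stag3 start was in this gap, 25 bp before the downstream peak. Another peak in the start window had 24 fragments over 365 bp. A further peak of 818 bp with 28 fragments lay 4798 bp upstream, within the annotated extent of both Stag3 and Gpc2. Downstream of the start-site peaks no peak was found for 82.1 kb, past the end of the gene. The annotated extent of Stag3 begins 7995 bp upstream of the listed start, and with the annotated ends in place of the start no peak was called for Stag3.

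**Figure D2:**
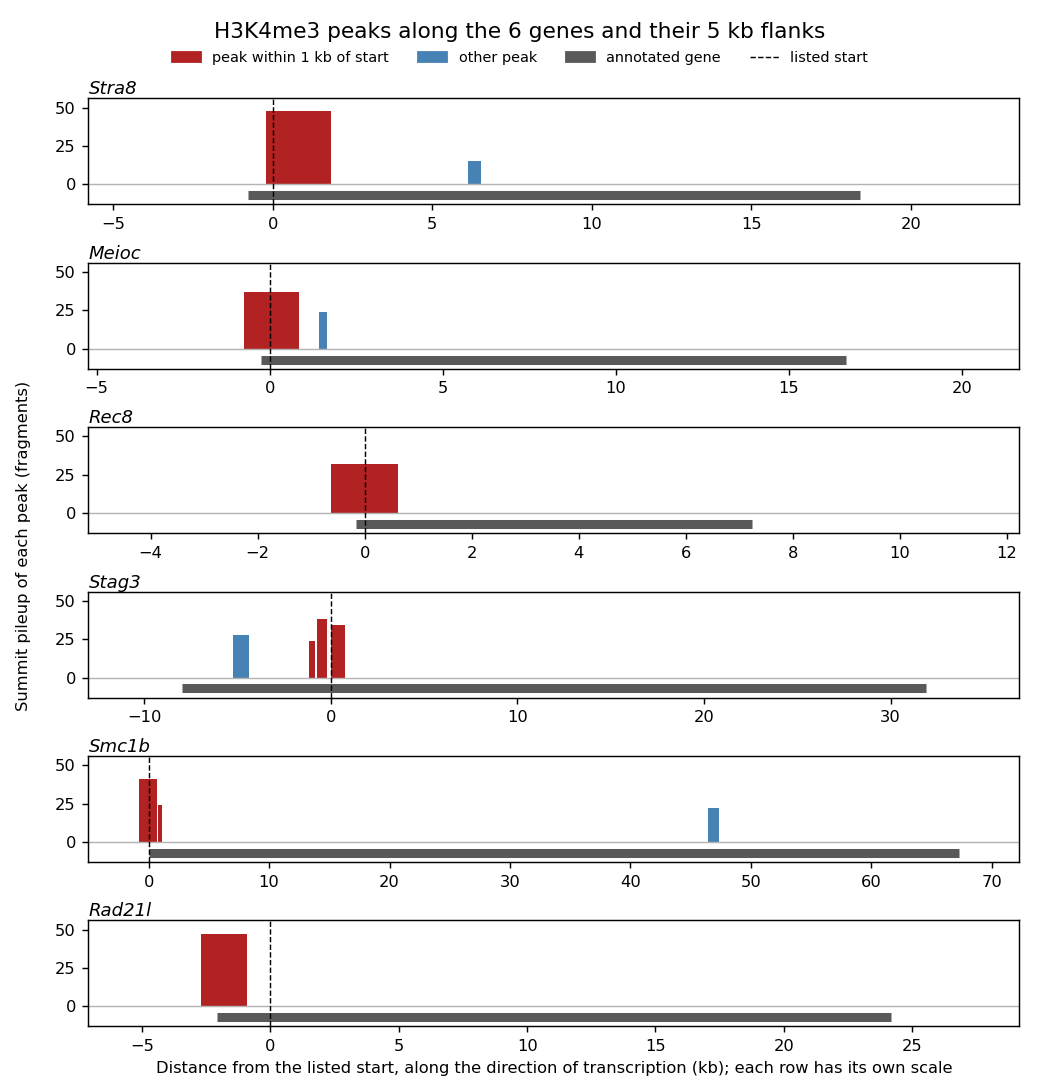
H3K4me3 peaks along each of the 6 genes and their 5 kb flanks, with the distance from the listed start on the x axis (kb, a scale for each row) and the summit pileup on the y axis (fragments). Each bar spans a peak, red within 1 kb of the start and blue elsewhere. The mark stands on the listed start in Stra8, Meioc, Rec8 and Smc1b, on both sides of it in Stag3 and upstream of it in Rad21l.

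Of the 13 peaks 9 lay in start windows and 4 elsewhere. The 4 others were the peak inside Stra8, the narrow one inside Meioc, the one deep in Smc1b and the upstream one in Stag3, with 15 to 28 fragments each. The 6 windows held between 0.276 peaks per 10 kb in Rad21l and 0.802 in Stag3, against a median of 0.626 over all protein-coding genes. Besides Ribc2, Gpc2 and Fam118a, the windows held an annotated end of Ccdc43 near Meioc, of Ipo4 near Rec8 and of Gal3st4 near Stag3, and the pseudogenes Gm10923 near Smc1b and Gm19180 near Rad21l, none with a listed start there. Just outside the 5 kb flanks, a peak of 285 bp with 19 fragments lay 0.102 kb further downstream of Stra8, and one of 1170 bp with 41 fragments lay 0.241 kb further upstream of Meioc.

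A peak covered 5 of the 6 genes from 100 to 600 bp downstream of the listed start, and Rad21l was the exception. Coverage of the 14731 protein-coding genes with 1 listed start was highest at 100 bp downstream, where 57.5% were covered.

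**Figure D3:**
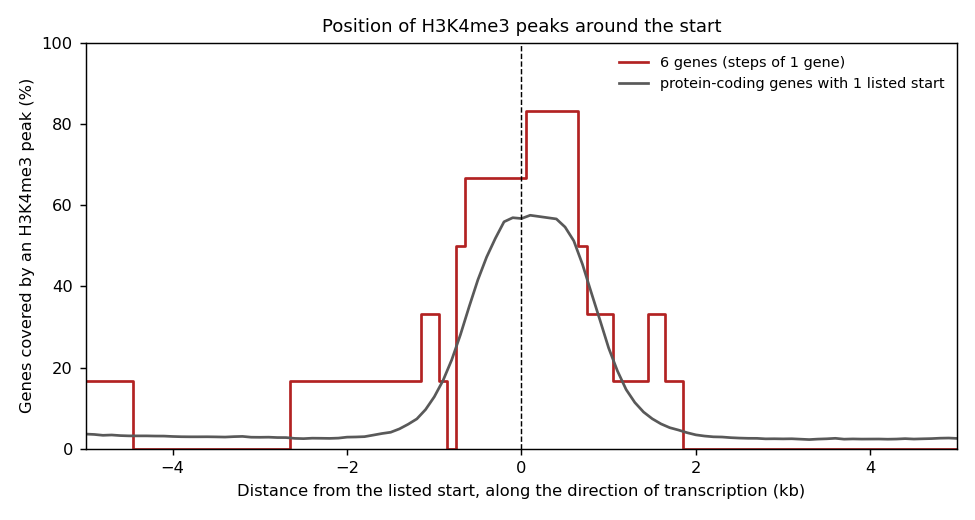
Share of genes covered by an H3K4me3 peak (y axis, %) by distance from the listed start (x axis, kb), for the 6 genes and for protein-coding genes with 1 listed start. Coverage of the 6 genes reached 5 genes from 100 to 600 bp downstream, and that of all genes 57.5% at 100 bp.

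Summit pileups of the 6 genes lay close together. In order they were 48 fragments for Stra8, 47 for Rad21l, 41 for Smc1b, 38 for Stag3, 37 for Meioc and 32 for Rec8. The Poisson intervals overlapped in 15 of 15 pairs, so no order among the genes could be told at this depth. Their median of 39.5 compares with 42.0 over the protein-coding genes with a start-site peak, and with 39.0 over all with a listed start when those without a peak count as 0. By pileup, 11.0% of marked genes lay below Rec8, 73.0% below Rad21l and 77.3% below Stra8. The intervals of Rec8 (21.9 to 45.2), Rad21l (34.5 to 62.5) and Stra8 (35.4 to 63.6) all include the median of 42.0. By fold, 75.6% of marked genes lay below Rec8, 74.1% below Rad21l and 50.3% below Stra8, so the place of Rec8 turned with the measure.

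Width spread further than height, mainly through the narrow peak taken for Stag3. The other genes ran from 1255 bp at Rec8 to 2035 bp at Stra8, and pileups from 32 to 48 fragments. The tallest start-site peak measured at least 1000 bp in 5 of 6 genes, against 7955 of 17492 protein-coding genes with a listed start (45.5%). That share counts genes without a peak as below 1000 bp, and 12813 of the 17492 were marked. The median width was 1510 bp in the 6 genes against 1163 bp over marked genes. Stag3 was the narrow one at 514 bp, with 9.64% of marked genes narrower. That peak did not cover the Stag3 start, and its summit lay 44 bp from the Gpc2 start. The peak inside Stag3 was 758 bp wide. With neighbouring peaks merged across gaps of at most 1000 bp, Stag3 reached 1979 bp from 3 peaks, Meioc 2397 bp from 2 and Smc1b 1865 bp from 2. The median fold was 6.16 in the 6 genes against 6.13 over marked genes. The tallest peak had a fold of at least 5 in 5 of 6 genes, all but Stag3. For any peak at the start this held in 9882 of the 17492 genes (56.5%), again with unmarked genes counted as failing. The fold divides by the local background, which was 8.11 fragments at Stag3 and 3.54 at Rec8.

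**Figure D4:**
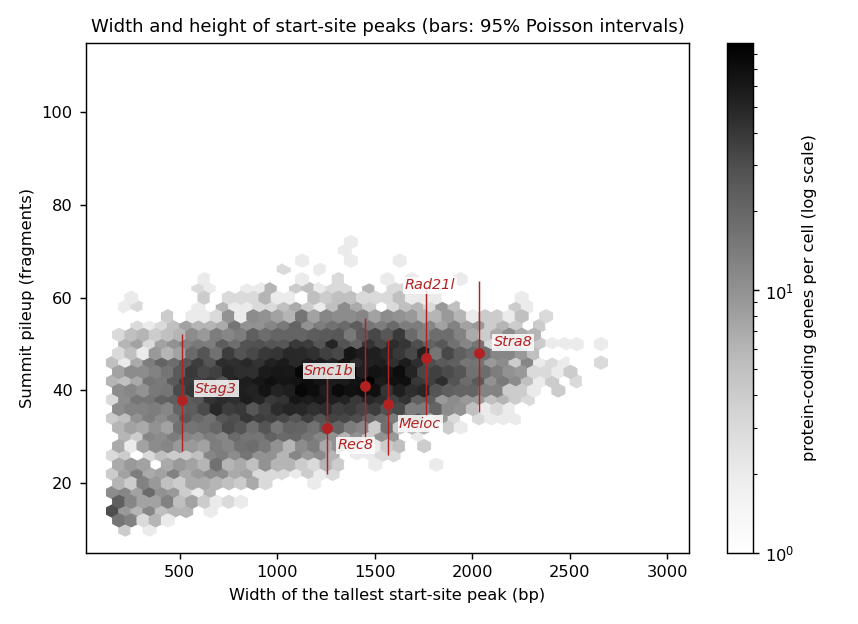
Width (x axis, bp) and summit pileup (y axis, fragments) of the tallest start-site peak, for the 6 genes in red with 95% Poisson intervals and for protein-coding genes as grey cells shaded on a log scale. The 6 genes lie among the other genes, with Stra8 at the wide end and Stag3 at the narrow end. The Stag3 point is the peak nearest the Gpc2 start. Of all start-site peaks, 3 exceed 110 fragments and are outside the plotted range.

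The mitotic counterparts of the cohesin subunits were marked as well. A start-site peak was found in 5 of 5 genes of mitotic cohesin, against 73.6% of all protein-coding genes when annotated ends stand in where no start is listed. Smc1b had 41 fragments (29.4 to 55.6), and its counterpart Smc1a, on the X chromosome, had 26 (17 to 38.1). Rec8 had 32 and Rad21l 47, and Rad21 had 37 (26.1 to 51.0) at an annotated end. Stag3 had 38, Stag1 47 (34.5 to 62.5), and Stag2, also X-linked and called at an annotated end, 36 (25.2 to 49.8). Smc3, which serves both kinds of ring, had 36 (25.2 to 49.8). In each of these pairs the intervals overlapped, and a difference in pileup was not detectable at this depth. Pileups were not adjusted for the copy number of the X chromosome. The Smc1b value is that of a peak shared with Ribc2, and the Stag3 value that of the peak nearest the Gpc2 start, the peak inside Stag3 having 34.

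Genes that load, release, cut or protect cohesin had a start-site peak in 15 of 15 cases, against the 73.6% of all protein-coding genes, with a median of 41.0 fragments against 42.0 over marked genes. Plk1, a mitotic kinase that phosphorylates cohesin, led with 62 (47.5 to 79.5), followed by Wapl, which opens the ring, and Sgo2b, a relative of the shugoshins that shield cohesin, with 49 each.

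Partners and regulators of meiotic entry had a start-site peak in 14 of 16 cases, beside 73.6% of all protein-coding genes, with a median of 40.0 fragments when unmarked genes count as 0. Rbm46, an RNA-binding protein needed for meiotic entry, had 60 fragments (45.8 to 77.2), Zglp1, a GATA-like factor of the oogenic programme in mice, 54, and Rxra, a partner of retinoic acid receptors, 50. Meiosin, the partner of Stra8, listed in the table as Bhmg1, had 39 fragments (27.7 to 53.3) over 1128 bp, and was picked out after its value was seen. Cyp26b1, whose enzyme breaks down retinoic acid in the fetal testis, and Nanos2, which holds back meiosis in male germ cells, had no peak at the listed start. Peaks lay elsewhere in their bodies or 5 kb flanks, 5 for Cyp26b1 and 4 for Nanos2. The tallest at Cyp26b1 had 51 fragments but was 176 bp wide with a fold of 2.65. The tallest at Nanos2 had 37 fragments, a width of 1047 bp and a fold of 4.08. With a fold of at least 5 the count of this list was 9 of 16, against 56.7% of all protein-coding genes, so it was near that of genes in general.

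The E2F6 and PRC1.6 group, which in mice holds germline genes silent outside the germ line, had a start-site peak in 14 of 14 cases, where 73.6% of all protein-coding genes had one, with a median of 41.5 fragments against 42.0 over marked genes. Wdr5 and Hdac2 led with 52 fragments each, and Max had 43.

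Genes that act later in meiosis were marked in most cases, as were 73.6% of all protein-coding genes. Synaptonemal complex and meiotic telomere genes had a start-site peak in 15 of 15 cases, with a median of 41.0 fragments, a median fold of 7.37 and a median width of 1449 bp. Sycp3 and Syce2 had 55 fragments each and Syce1 53. Meiotic recombination genes had one in 20 of 22 cases, with a median of 41.0 fragments, led by Rnf212 with 57, Dmc1 with 56 and Ankrd31 with 53. Mei1 had no peak at its listed start and Spo11 none at an annotated end, and each held peaks elsewhere in its body or flanks, the tallest with 54 and 28 fragments. No test of a difference between these lists could be made with 1 library.

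**Figure D5:**
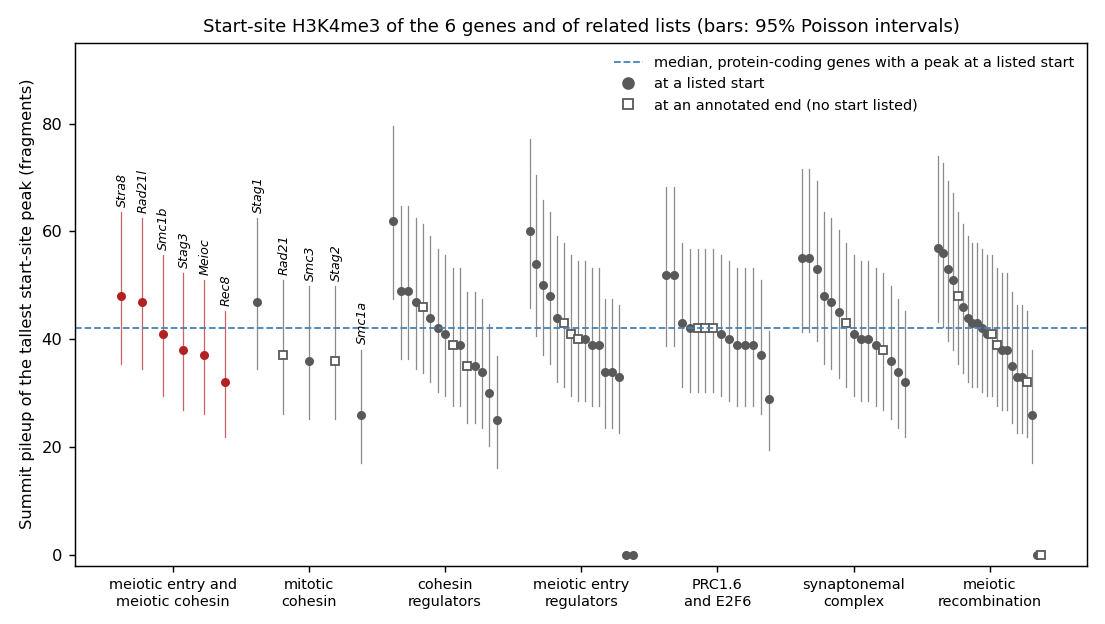
Summit pileup (y axis, fragments) of the tallest start-site peak of each gene, with 95% Poisson intervals, for the 6 genes in red and for 6 related lists (x axis). Squares are genes called at an annotated end, points at 0 are genes with no such peak, and the dashed line is the median of 42.0 over marked protein-coding genes. The 6 genes span 32 to 48 fragments and the lists overlap them.

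Markers of the labelled cell type and of its neighbours were set beside these values. Germ cell markers had a start-site peak in 8 of 10 cases and Sertoli markers in 5 of 7, both near the 73.6% of all protein-coding genes. Leydig markers had one in 2 of 6 cases and endothelial and blood markers in 3 of 7. With unmarked genes at 0, the median pileup was 34.5 fragments for germ cell and 41.0 for Sertoli markers, and the median fold was 6.61 for germ cell and 3.14 for Sertoli markers, so the order of these lists turned with the measure. Nanos2 and Nanos3 of the germ cells and Gata4 and Amhr2 of the Sertoli cells had no such peak. Cyp17a1, Hsd3b1, Insl3 and Star of Leydig cells, and Pecam1, Cdh5, Ptprc and Csf1r of endothelium and blood, had none either. Of these, Gata4, Cyp17a1, Star, Pecam1, Cdh5 and Csf1r had no listed start and were called at annotated ends. No peak lay anywhere in the body or flanks of Cyp17a1, Hsd3b1, Star and Csf1r. The other unmarked markers held from 1 peak (Nanos3) to 15 peaks (Gata4) elsewhere in their body or flanks. The tallest had 19 fragments in Nanos3, 49 in Gata4 and 43 in Ptprc. The Leydig markers with a start-site peak were Cyp11a1 with 51 fragments and Lhcgr with 41. Those of endothelium and blood were Kdr with 52, Hba-a1 with 40 and Tek with 39. The part of other cell types in the peaks at the 6 genes was not tested.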

How the data were processed

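The authors deposited 1 list of H3K4me3 peaks in mm10 coordinates. The submitters' processing notes name MACS2 2.1.0, Bowtie2 2.5.0, Trim Galore, deepTools 3.5.1, bedtools 2.27.1 and SAMtools 1.16.1. Their roles and settings and the fragment total are not stated in these notes. Deposited peak names carry the letters of IgG, and whether that library served as control was not tested. The deposited list gives each peak a score, a fold enrichment (a ratio), a −log10 p and a −log10 q, which are the authors' values for that peak.

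Pileup and background at each summit were computed from the deposited fold, read as pileup plus 1 over background plus 1, and from −log10 p, read as a Poisson upper tail. This solved 135053 of 135064 peaks within 0.0001. Low fragment numbers limit the precision to the Poisson intervals given. Fragments carry no molecular identifiers here.

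Starts came from the RefSeq promoter table (GRCm38.p6), 17492 of 21887 protein-coding genes having one, and annotated ends stood in for the rest. All 6 genes had 1 listed start. A start-site peak overlapped the 1 kb on either side by at least 1 bp, and the tallest was reported. Genes were named by a rule: the 6 genes, all of mitotic cohesin, and of each other list the 3 of highest pileup and those unmarked. This rule did not cover the cell type markers, which were meant for counts, and those named were picked after their values were seen. Members, lists and motifs were chosen with earlier results of these data known. On data simulated with the same formulas, 2000 of 2000 pileups were recovered. Peaks planted to overlap the start windows were called at 200 of 200 starts. Both outcomes followed from how the data were built, so they check the code and not the calls on real data. Computations used scipy 1.17.1, pandas 2.3.3 and numpy 2.4.6 in Python 3.11.15, and plots matplotlib 3.10.9.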

Additional observations from a re-analysis of the deposited data

How the results depend on the processing

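The count of 6 genes with a peak in the body or flanks was 6 with no flank, with 10 kb, with −log10 q of at least 5 and with 200 bp shared, and 5, without Stag3, once folds under 5 were left out. The start-site count was 6 within 2500 bp, against 77.1% of protein-coding genes with a listed start. It was also 6 with −log10 q of at least 5, against 72.8%. It was 5 without Rad21l within 500 bp (71.5% of those genes), with the summit inside (71.3%) and with 200 bp shared (72.0%). It was 5 without Stag3 with annotated ends (74.3%) and with a fold of at least 5 (56.5%). Under that fold threshold the meiotic entry regulators fell to 9 of 16 and the Sertoli markers to 1 of 7. The share of all protein-coding genes was then 56.7%. All other list counts stayed within 1.5 times. With 10 kb flanks the windows held 7 peaks for Stra8, 4 for Meioc and 2 for Rec8. The peak of highest fold at Stag3 was 758 bp wide. No paired analysis was possible because each group has 1 library. No replicate could be left out, and the low fragment numbers limit what can be told apart.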
